A study of Mus musculus with 16 samples.

Results

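Glycolysis, glycogen turnover and glucose transport were followed through 37 genes, of 48432 listed, in C2C12 myotubes exposed to electrical pulse stimulation (EPS) and in unstimulated controls. The members were taken by gene symbol as the enzymes, carriers and regulators of these steps, and all 37 were found in the table. C2C12 is an established mouse myoblast line whose cells fuse into multinucleate myotubes that can contract. The 4 EPS libraries came from myotubes on day 5 of differentiation that received 6 ms pulses at 1 Hz, at 2.75 V/mm, a duty cycle of 0.6% and a polarity switch at 0.5 Hz. The 4 control libraries came from myotubes of the same line and day without pulses. No source used here says how long the stimulation lasted, and the labels do not tie the libraries of a group to separate cultures. P-values therefore measure only how far these libraries spread, and that spread may be technical.

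Glucose enters a muscle cell through facilitative transporters and is trapped as glucose 6-phosphate by hexokinase. It is then either burned by glycolysis, whose committed step is phosphofructokinase, or stored as glycogen, a branched polymer built by glycogen synthase and branching enzyme and broken down by glycogen phosphorylase. Many steps have isozymes, of which 1 is typical of mature muscle (such as Pfkm, Pgam2, Eno3 and Pygm) and others of many tissues. Pyruvate at the end of the pathway is reduced to lactate, which leaves or enters the cell through monocarboxylate carriers. Contraction is a classical stimulus of glucose uptake and glycogen breakdown in skeletal muscle.

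The EPS libraries held 14.7 to 20.7 M fragments assigned to genes (M, 10 to the power of 6), and control replicates 1, 3 and 4 held 12.6 to 20.7 M. Control replicate 2 held 0.354 M. Levels between libraries are given as CPM, counts per M fragments of a library's total after TMM scaling. A count of 3 fragments, the limit that a count of 0 allows, was 0.138 to 0.240 CPM in the 7 deep libraries and 8.51 CPM in control replicate 2, where 8 members had no fragment. That library therefore carries little information on low members. Where leaving it out turned the direction of a member's difference in means, or moved a member's mean by over 1.5 times, the control mean of the other 3 libraries is given too. Of the markers used to check the label, 13 of 14 myotube genes could be tested. Their summed level was 13382 to 17955 CPM in EPS and 21664 to 27047 CPM in control libraries. Means ran from Mymx, at 18.45 CPM in EPS and 46.39 CPM in control libraries, to Myh3, at 5108 and 7242 CPM. The other myotube marker, Ttn, was marked in the table as having too many fragments. Adipocyte markers were at or near 0, with sums of at most 0.320 CPM in any EPS and 0.157 CPM in any control library. The 6 markers of undifferentiated myoblasts (Pax7 and Myf5) or dividing cells were present, with sums of 290.8 to 644.7 CPM in EPS and 373 to 787.9 CPM in control libraries. The 3 fibroblast markers summed to 178 to 378 CPM in EPS and 122 to 561 CPM in control libraries, nearly all of it Col1a1.

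In the comparison of 4 EPS with 4 control libraries, 2 members were called higher and none lower in EPS. The call rule was an adjusted p under 0.05 in edgeR's quasi-likelihood test over all 13987 genes tested, of which 2.30% were called higher and 0.758% lower in EPS. Of the 37 members, 34 passed the filter on low counts, and Gapdh, Pygl and Phkg1 did not. The 2 called were Gbe1 and Phka1, both of glycogen metabolism. At an unadjusted p under 0.05 in edgeR, 3 members had a higher and 5 a lower level. The share of all genes at that cut is not given here. DESeq2 called 3 members higher and 3 lower (Pgam2, Eno3 and Gys1), and over all genes 633 higher and 294 lower. Limma on FPKM called 1 member higher and 0 lower. The median log2 fold change of the 34 members was -0.21 (EPS over control), against 0.01 for all genes tested, with 12 members positive and 22 negative.

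EPS and control libraries with the same replicate number deviated together from their group means, and with the number as a block the count of member calls rose. The fit with the block called 4 members higher (Gbe1, Phka1, Slc2a1 and Slc16a1) and 4 lower (Pgam2, Eno3, Slc16a3 and Gyg). It also called more genes in all, with 7.31% of those tested higher and 4.78% lower. A gene length offset added to the block gave 4 members higher and 10 lower, with Pfkm, Pfkl, Tpi1, Ldha, Pygm and Gys1 beside the 4. Of the 13987 genes tested, that fit called 990 higher and 873 lower. The 8 members called in either fit are plotted by library, and the fitted values of all 34 with both fits. Groups that did not overlap in CPM were seen in 4 members higher in EPS (Slc2a1, Hk2, Gbe1 and Phka1) and 3 lower (Pgam2, Gys1 and Gyg), against 9.32% and 4.83% of all genes tested.

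**Figure D1:**
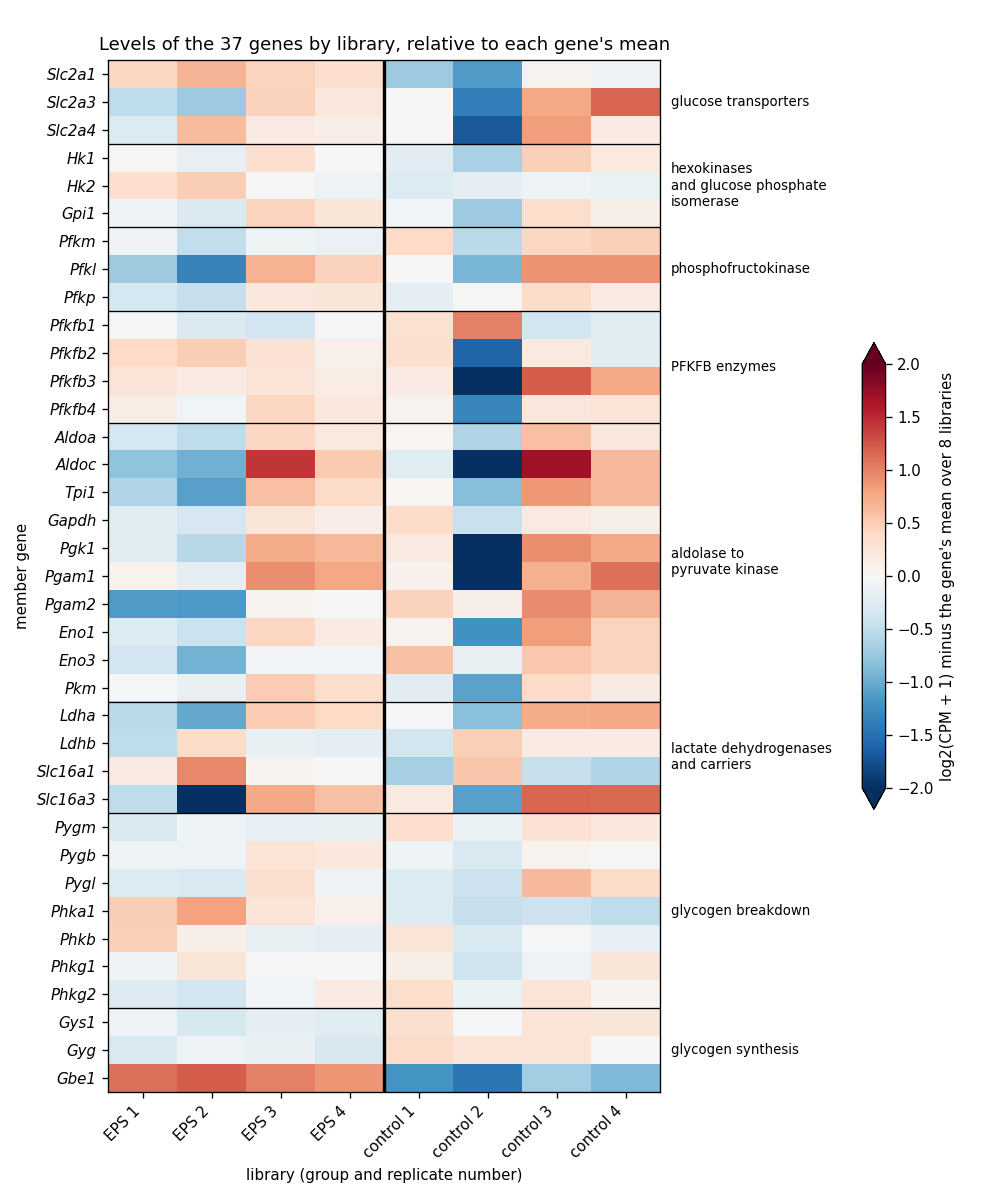
Levels of the 37 genes in the 4 EPS and 4 control libraries, as log2(CPM + 1) minus each gene's mean over the 8 libraries, with genes ordered by role. Gbe1 is the gene with all 4 EPS libraries well above all 4 control libraries, while many other rows differ more between replicates 1 and 2 and replicates 3 and 4 than between the groups.

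**Figure D2:**
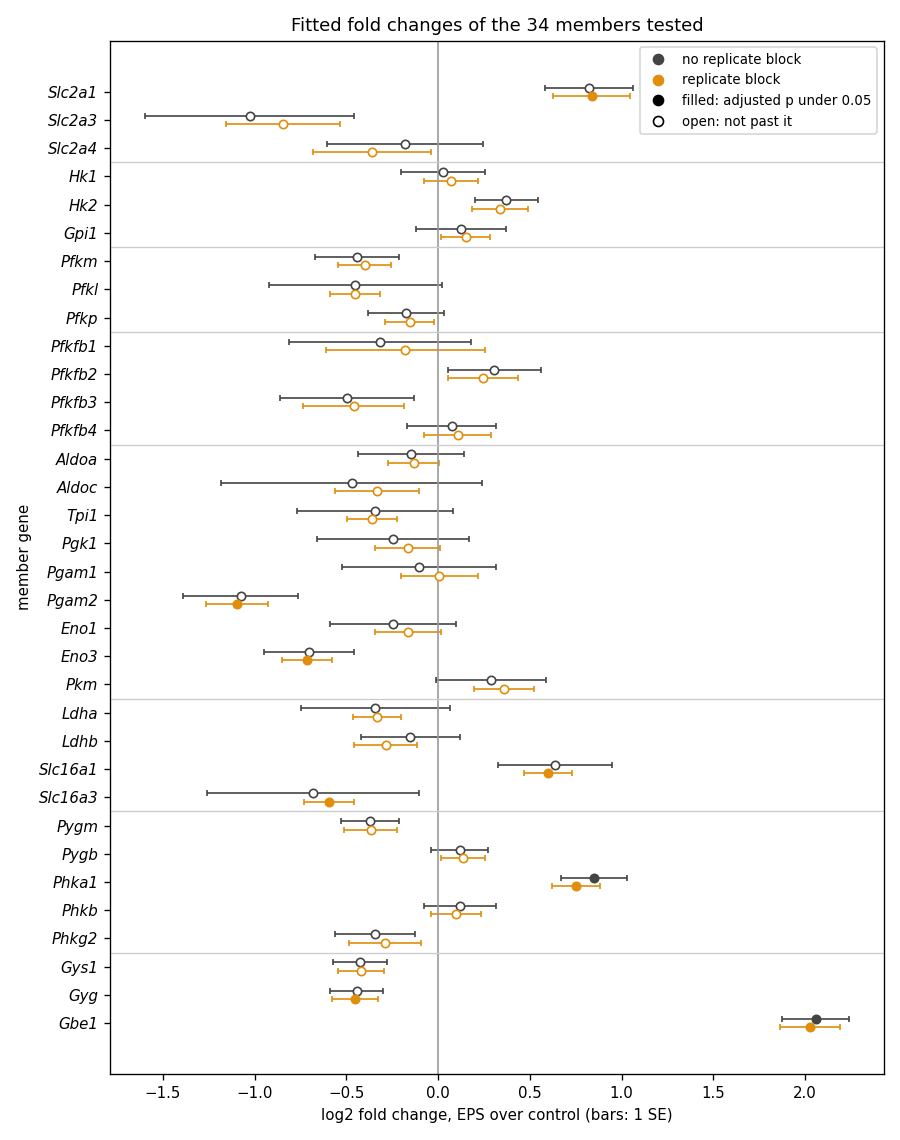
Fitted log2 fold changes (EPS over control) of the 34 members tested, with 1 standard error, from the fit without the replicate block (dark) and with it (orange). Filled points passed an adjusted p of 0.05, 2 members without the block and 8 with it.

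The strongest change of the pathway was in glycogen synthesis. Gbe1, the glycogen branching enzyme, had 154, 167, 144 and 133 CPM in EPS replicates 1 to 4, against 30.5, 25.5, 43.3 and 38.3 CPM in control replicates 1 to 4. All 4 EPS libraries lay far above all 4 control libraries, the shallow one included. The log2 fold change was 2.06 (SE 0.18, a 4.16-fold difference, edgeR adjusted p = 0.000286), and the call held under all 19 alternatives, with log2 fold changes from 1.76 to 2.44. Per length, its level was 50.8 FPKM ± 5.23 in EPS and 11.9 FPKM ± 3.88 in control libraries (SD, n = 4 each). Gbe1 (ENSMUSG00000022707) spans positions 70313949 to 70569716 of chromosome 16 on the plus strand of mm10, and no exon of another listed gene overlaps its exons. In control replicate 2 it was seen in 9 fragments.

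The other members of glycogen synthesis had lower levels in EPS. Gys1, the muscle glycogen synthase that extends the chains, had 242, 203, 224 and 214 CPM in EPS replicates 1 to 4, against 319, 249.7, 309 and 303 CPM in control replicates 1 to 4. The groups did not overlap, and every EPS library was below its control of the same number. Its log2 fold change was -0.43 (SE 0.15, adjusted p = 0.156, and 0.0524 with the replicate block). Gyg (ENSMUSG00000019528; chromosome 3, 20122084 to 20155317, minus strand) encodes glycogenin, the protein primer on which a glycogen granule starts. It had 69.2, 79.9, 77.1 and 68.3 CPM in EPS replicates 1 to 4, against 111.7, 102, 102 and 85.1 CPM in control replicates 1 to 4. There was again no overlap (log2 fold change -0.44, SE 0.15, adjusted p = 0.136). With the block it was -0.45 and passed (adjusted p = 0.0436). The summed level of the 3 genes was 444 CPM ± 21.0 in EPS and 429.8 CPM ± 38.2 in control libraries (SD, n = 4 each), and these sums overlapped between the groups. Control replicate 2 had the lowest sum, 377 CPM, and control replicates 1, 3 and 4 had 461, 454 and 426 CPM. Without control replicate 2 the control mean of the sums lay above that of EPS.

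Because Gbe1 was higher in EPS and the other genes of its step were lower, the 250 bases before its RefSeq start are shown (RefSeq, GRCm38.p6, chr16:70313699-70313948, plus strand, 5′ to 3′). Capitals mark the E-box letters CANNTG, the core bound by myogenic and other helix-loop-helix factors.

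Gbe1: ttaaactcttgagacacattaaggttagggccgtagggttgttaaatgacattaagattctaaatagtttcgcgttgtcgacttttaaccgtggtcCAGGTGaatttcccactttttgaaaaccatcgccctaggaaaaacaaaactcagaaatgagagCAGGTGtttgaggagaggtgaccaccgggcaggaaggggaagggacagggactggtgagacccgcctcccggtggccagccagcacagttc

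The Gbe1 window held a pair of E-boxes, both CAGGTG, and no match to the antioxidant response element core TGACNNNGC, the hypoxia response core ACGTG or the MEF2 site, all searched on both strands. Of 32851 promoter windows of the same length, 66.2% held an E-box, 10.2% the antioxidant core, 16.6% the hypoxia core and 2.92% a MEF2 site. A match is a description of letters, not a site in use, and a window without one says nothing of the factor.

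**Figure D3:**
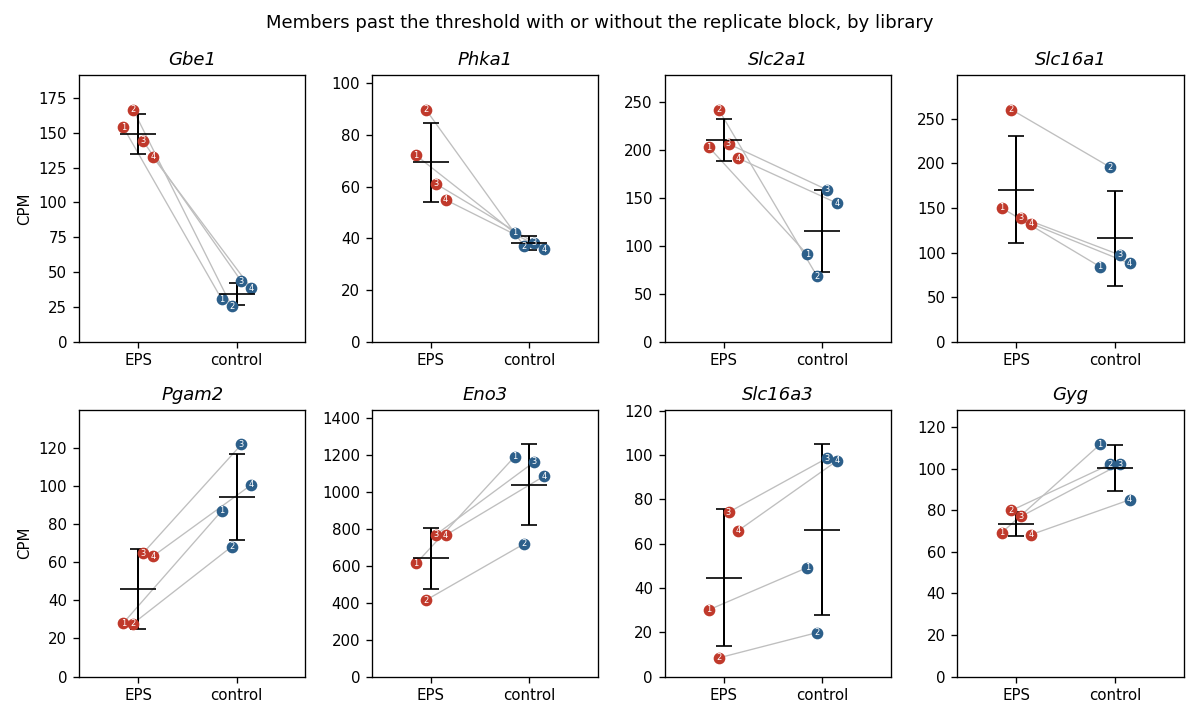
CPM of the 8 members past the threshold with or without the replicate block, EPS left and control right in each panel. Points are libraries numbered by replicate, grey lines join libraries of the same number, and black marks are the mean ± SD (n = 4). The lines run in 1 direction in every panel, while the groups overlap for Slc16a1, Slc16a3 and Eno3.

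In glycogen breakdown, a regulatory subunit rose and the muscle phosphorylase had lower values. Phka1 encodes the muscle alpha subunit of phosphorylase kinase, the enzyme that switches glycogen phosphorylase on in response to calcium and adrenaline. Phka1 (ENSMUSG00000034055; chromosome X, 102513975 to 102644246, minus strand, mm10) had 72.2, 89.9, 61.2 and 55.0 CPM in EPS replicates 1 to 4, against 42.2, 36.9, 38.4 and 35.9 CPM in control replicates 1 to 4. The control libraries lay close together, and the EPS libraries were spread above them with replicate 2 highest. This was a log2 fold change of 0.85 (SE 0.18, adjusted p = 0.0352, and 0.00543 with the replicate block). The call was lost without EPS replicate 1 and without control replicate 1, 3 or 4 (adjusted p at most 0.147). Over the 8 libraries left out in turn, the log2 fold change was 0.69 to 0.93. Phkb, the beta subunit, averaged 145.5 CPM ± 32.5 in EPS and 132.5 CPM ± 22.8 in control libraries (SD, n = 4 each), with a log2 fold change of 0.12 (SE 0.20, adjusted p = 0.797). Of the catalytic gamma subunits, Phkg2 averaged 8.62 CPM ± 1.66 in EPS and 10.5 CPM ± 1.69 in control libraries (SD, n = 4 each; log2 fold change -0.34, adjusted p = 0.437). The gamma subunit named for muscle, Phkg1, was at 0.363 CPM in EPS and 0.310 CPM in control libraries on average (0.414 CPM without control replicate 2) and was not tested.

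Pygm, the muscle glycogen phosphorylase and the most abundant gene of breakdown, had 269, 310, 297 and 297 CPM in EPS replicates 1 to 4, against 419, 301, 407 and 382 CPM in control replicates 1 to 4. Control replicates 1, 3 and 4 lay above all EPS libraries and control replicate 2 among them. Pygm had a log2 fold change of -0.37 (SE 0.16, adjusted p = 0.24, and 0.129 with the block). Without pair 2 the block fit gave -0.49 (adjusted p = 0.0117). Pygb, the brain form found in many tissues, averaged 48.5 CPM ± 6.61 in EPS and 43.7 CPM ± 5.04 in control libraries (SD, n = 4 each; log2 fold change 0.12, adjusted p = 0.737). The log2 ratio of Pygm to Pygb was 2.60 ± 0.20 in EPS and 3.10 ± 0.12 in control libraries (SD, n = 4 each), a difference of -0.50, with no overlap of the groups. The exact two-sided permutation test gave p = 0.0286, the smallest value that 4 against 4 libraries allow, and 0.157 after adjustment over the 11 isozyme ratios computed. Pygl, the liver form, was near the floor, at 0.283 CPM in EPS and 0.481 CPM in control libraries on average.

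Of the glucose transporters, the ubiquitous form was higher in EPS. Slc2a1, which encodes GLUT1, the carrier of basal uptake, had 203, 242, 206 and 191 CPM in EPS replicates 1 to 4, against 90.8, 68.1, 158 and 144 CPM in control replicates 1 to 4. No library of one group reached into the other, and the gap was wider in replicates 1 and 2 than in replicates 3 and 4. Over 8 libraries this was a log2 fold change of 0.82 (SE 0.24, adjusted p = 0.0987). Slc2a1 (ENSMUSG00000028645) lies at positions 119108711 to 119137983 of chromosome 4, plus strand. With the replicate block the value was 0.84 and passed (SE 0.21, adjusted p = 0.028). It passed within each set of replicates too, at 1.41 in replicates 1 and 2 (adjusted p = 0.0199) and 0.39 in replicates 3 and 4 (adjusted p = 0.0138), and the difference between the sets was not tested. Slc2a4, which encodes GLUT4, the insulin- and contraction-responsive carrier of adult muscle, averaged 2.66 CPM ± 0.942 in EPS and 2.38 CPM ± 1.93 in control libraries (SD, n = 4 each), and 3.17 CPM ± 1.35 (n = 3) in control libraries without replicate 2. Slc2a3, which encodes GLUT3, averaged 1.50 CPM ± 0.965 in EPS and 2.46 CPM ± 2.12 in control libraries (SD, n = 4 each). Both had no fragment in control replicate 2, and neither passed (adjusted p = 0.868 for Slc2a4 and 0.37 for Slc2a3). Per length, Slc2a1 was the main transporter of the 3 in both groups, at 64.9 FPKM in EPS and 36.2 FPKM in control libraries, while Slc2a4 was at 1.21 FPKM in EPS and 1.02 FPKM in control libraries (1.36 FPKM without control replicate 2).

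The hexokinases and glucose phosphate isomerase passed no test. Hk2, the hexokinase typical of insulin-sensitive muscle, had 306, 340.5, 240.0 and 226 CPM in EPS replicates 1 to 4, against 199, 213, 226 and 221 CPM in control replicates 1 to 4. EPS replicates 1 and 2 stood above all control libraries, while EPS replicate 4 and control replicate 3 were almost level. Hk2 had a log2 fold change of 0.37 (SE 0.17, adjusted p = 0.284, and 0.184 with the block). Hk1, the hexokinase of most tissues, averaged 222 CPM ± 33.0 in EPS and 215 CPM ± 69.7 in control libraries (SD, n = 4 each; log2 fold change 0.03, adjusted p = 0.971). Without control replicate 2 the control mean of Hk1 was 241 CPM ± 56.3 (SD, n = 3) and the log2 fold change -0.12. Gpi1, which turns glucose 6-phosphate into fructose 6-phosphate, was the most abundant of the 3 per length. It had 484, 416, 697 and 599.9 CPM in EPS replicates 1 to 4, against 488, 309, 649.6 and 551 CPM in control replicates 1 to 4, and the groups overlapped. Gpi1 averaged 549 CPM in EPS and 499 CPM in control libraries, and 563 CPM ± 81.4 in control libraries without replicate 2 (SD, n = 3). Its log2 fold change was 0.13 (SE 0.25, adjusted p = 0.831) and -0.04 without control replicate 2. For Gpi1, 1 near-identical pseudogene, Gm1840, took 119 CPM in EPS and 114 CPM in control libraries on average.

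Each of the 3 phosphofructokinase genes had a negative log2 fold change, and none passed over all 8 libraries without or with the block alone. Pfkm, the muscle subunit and the most abundant, had 420.5, 314, 414 and 402 CPM in EPS replicates 1 to 4, against 581, 304, 589 and 614 CPM in control replicates 1 to 4. Replicate 2 was the lowest library of both groups and in the control group lay below every EPS library. The log2 fold change of Pfkm was -0.44 (SE 0.23, adjusted p = 0.339, and 0.105 with the block). In the block fit without pair 2 it was -0.54 (SE 0.10, adjusted p = 0.00698), and in replicates 3 and 4 alone -0.56 (adjusted p = 0.00136). The block with a gene length offset, over all 8 libraries, called Pfkm (adjusted p = 0.0230) and Pfkl (adjusted p = 0.0280) lower. Pfkl, the liver subunit, averaged 123 CPM ± 73.0 in EPS and 163 CPM ± 82.7 in control libraries (SD, n = 4 each), with a wide spread between the sets of replicates and a log2 fold change of -0.45 (SE 0.47, adjusted p = 0.658). Pfkp, the platelet subunit, averaged 101.5 CPM ± 25.5 in EPS and 114 CPM ± 18.1 in control libraries (SD, n = 4 each), with a log2 fold change of -0.17 (adjusted p = 0.708). The gene Senp1 overlaps Pfkm and was at 31.9 CPM in EPS and 24.8 CPM in control libraries on average (log2 fold change 0.25, adjusted p = 0.541).

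The 4 PFKFB genes, whose enzymes make and remove fructose 2,6-bisphosphate, the activator of phosphofructokinase, were low and passed in neither fit over 8 libraries. The most abundant per length was Pfkfb2, the form first known from heart. It had 14.4, 15.5, 13.3 and 11.6 CPM in EPS replicates 1 to 4, against 13.8, 2.84, 12.3 and 9.07 CPM in control replicates 1 to 4, where the value of replicate 2 is 1 fragment. Its log2 fold change was 0.31 (SE 0.25, adjusted p = 0.564). Pfkfb3, the form with the highest kinase activity, averaged 7.99 CPM ± 0.393 in EPS and 9.23 CPM ± 7.23 in control libraries (SD, n = 4 each; log2 fold change -0.50, adjusted p = 0.508). In replicates 3 and 4 alone it passed with -0.87 (adjusted p = 0.0195), whereas in replicates 1 and 2 its value was 0.30 (adjusted p = 0.867). Pfkfb4 averaged 9.82 CPM ± 1.43 in EPS and 8.09 CPM ± 3.56 in control libraries (SD, n = 4 each), and 9.84 CPM ± 0.758 in control libraries without replicate 2 (n = 3). Pfkfb1, the liver and muscle gene, was close to the floor at 0.694 CPM ± 0.213 in EPS and 1.32 CPM ± 1.08 in control libraries (SD, n = 4 each). The control mean rests on 1 fragment in replicate 2 and was 0.815 CPM ± 0.472 without it (n = 3).

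From aldolase to pyruvate kinase, the muscle forms of phosphoglycerate mutase and enolase stood out. Pgam2, the muscle mutase, had 28.0, 27.8, 64.6 and 63.0 CPM in EPS replicates 1 to 4, against 86.9, 68.1, 122 and 100.5 CPM in control replicates 1 to 4. The groups did not overlap, and in each group replicates 1 and 2 lay below replicates 3 and 4. Pgam2 (ENSMUSG00000020475; chromosome 11, 5801640 to 5803733, minus strand) had a log2 fold change of -1.07 (SE 0.31, adjusted p = 0.0982). With the replicate block Pgam2 fell by 1.10 on the log2 scale (SE 0.17, adjusted p = 0.00301), and it fell within replicates 1 and 2 (-1.54, adjusted p = 0.0126) and within replicates 3 and 4 (-0.80, adjusted p = 0.00153). Eno3, the muscle enolase, had 613, 414, 769 and 766.5 CPM in EPS replicates 1 to 4, against 1192, 721, 1164 and 1087 CPM in control replicates 1 to 4. Control replicate 2 lay among the EPS libraries, and each EPS library was below the control of its number. For Eno3 (ENSMUSG00000060600; chromosome 11, 70657202 to 70662513, plus strand) the log2 fold change was -0.70 (SE 0.24, adjusted p = 0.154). With the block Eno3 fell by 0.71 (SE 0.14, adjusted p = 0.00838).

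Over all 8 libraries, the ubiquitous counterparts of these isozymes differed less between the groups than between libraries. The block fit without pair 2 called Eno1 lower (log2 fold change -0.36, SE 0.09, adjusted p = 0.0282) but not Pgam1 (-0.06, adjusted p = 0.817). Eno1 averaged 179 CPM ± 48.5 in EPS and 206.5 CPM ± 102 in control libraries (SD, n = 4 each; log2 fold change -0.25, adjusted p = 0.751), with 3 near-identical genes, Eno1b the highest, summing to 127 CPM in EPS and 133 CPM in control libraries. Pgam1 averaged 14.5 CPM ± 5.60 in EPS and 12.8 CPM ± 9.89 in control libraries (SD, n = 4 each; log2 fold change -0.10, adjusted p = 0.929), below its near-identical pseudogene Pgam1-ps2 at 24.0 CPM in EPS and 26.3 CPM in control libraries. Without control replicate 2, which had no Pgam1 fragment, the control mean of Pgam1 was 17.1 CPM ± 6.09 (SD, n = 3). The log2 ratio of Eno3 to Eno1 was 1.84 ± 0.20 in EPS and 2.48 ± 0.60 in control libraries (SD, n = 4 each; exact two-sided permutation p = 0.0857, 0.314 adjusted over 11 ratios). The log2 ratio of Pgam2 to Pgam1 was 1.37, 1.64, 1.66 and 1.80 in EPS replicates 1 to 4, against 2.98, 9.06, 2.80 and 2.12 in control replicates 1 to 4. It did not overlap (exact two-sided permutation p = 0.0286, 0.157 adjusted), but the value of control replicate 2 comes from no Pgam1 fragment, and the difference was -2.62 with that library and -1.02 without it.

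Pgam2 is the member with the largest fitted decrease, and its window before the RefSeq start is shown with E-boxes and the MEF2 site in capitals (RefSeq, GRCm38.p6, chr11:5803797-5804046, minus strand, 5′ to 3′).

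Pgam2: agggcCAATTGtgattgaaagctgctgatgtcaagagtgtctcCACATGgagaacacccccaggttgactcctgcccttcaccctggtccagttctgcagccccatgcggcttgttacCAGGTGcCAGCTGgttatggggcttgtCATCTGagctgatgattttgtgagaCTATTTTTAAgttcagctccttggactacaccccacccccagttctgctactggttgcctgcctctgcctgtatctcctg

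It held 5 E-boxes and 1 of the 2 MEF2 matches found among 52 windows of 35 members. E-boxes were in 65.4% of member windows, close to their share of all windows, and the MEF2 site was in 3.85%.

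The remaining genes of this stretch passed neither without nor with the block over 8 libraries, and Tpi1 was called lower once a gene length offset was added to the block (log2 fold change -0.41, adjusted p = 0.0418). The most abundant was Pkm, pyruvate kinase of muscle and most other tissues, with 2440, 2200, 3444 and 3111 CPM in EPS replicates 1 to 4, against 2106, 1149, 3179 and 2709 CPM in control replicates 1 to 4. Each EPS library was above its control of the same number, but the groups overlapped (log2 fold change 0.29, SE 0.30, adjusted p = 0.657, and 0.188 with the block). Its near-identical pseudogene Gm6560 took 158 CPM in EPS and 133 CPM in control libraries on average. Aldoa, the muscle aldolase, averaged 1424 CPM ± 428 in EPS and 1572 CPM ± 512 in control libraries (SD, n = 4 each; log2 fold change -0.15, adjusted p = 0.834). Aldoc, the brain aldolase, averaged 5.38 CPM ± 4.96 in EPS and 6.12 CPM ± 6.33 in control libraries (SD, n = 4 each). Tpi1, triose phosphate isomerase, averaged 599 CPM ± 307 in EPS and 755 CPM ± 344 in control libraries (SD, n = 4 each; log2 fold change -0.34, adjusted p = 0.716). Pgk1, phosphoglycerate kinase, averaged 26.0 CPM ± 11.2 in EPS and 26.7 CPM ± 17.5 in control libraries (SD, n = 4 each; log2 fold change -0.24, adjusted p = 0.80). The control mean of Pgk1 includes 1 fragment in replicate 2 and was 34.6 CPM ± 9.07 without that library (SD, n = 3).

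Gapdh, the glyceraldehyde phosphate dehydrogenase often used as a reference transcript, could not be read from the table. It was listed at 0.340 CPM in EPS and 0.446 CPM in control libraries on average, while 77 annotated genes, 73 of them pseudogenes, are near-identical to it (at least 95% over at least 300 bases). Those present in the table summed to 471 CPM in EPS and 549.8 CPM in control libraries on average, most of it on Gm13394. Among all 37 members, 9 have such near-identical genes, and the levels of Pgam1, Pgk1, Eno1, Gpi1, Pkm and Tpi1 are uncertain by the share counted on these copies. Gbe1, Phka1, Slc2a1, Slc16a1, Slc16a3, Pgam2, Eno3, Gys1 and Gyg are among the 28 without one.

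**Figure D4:**
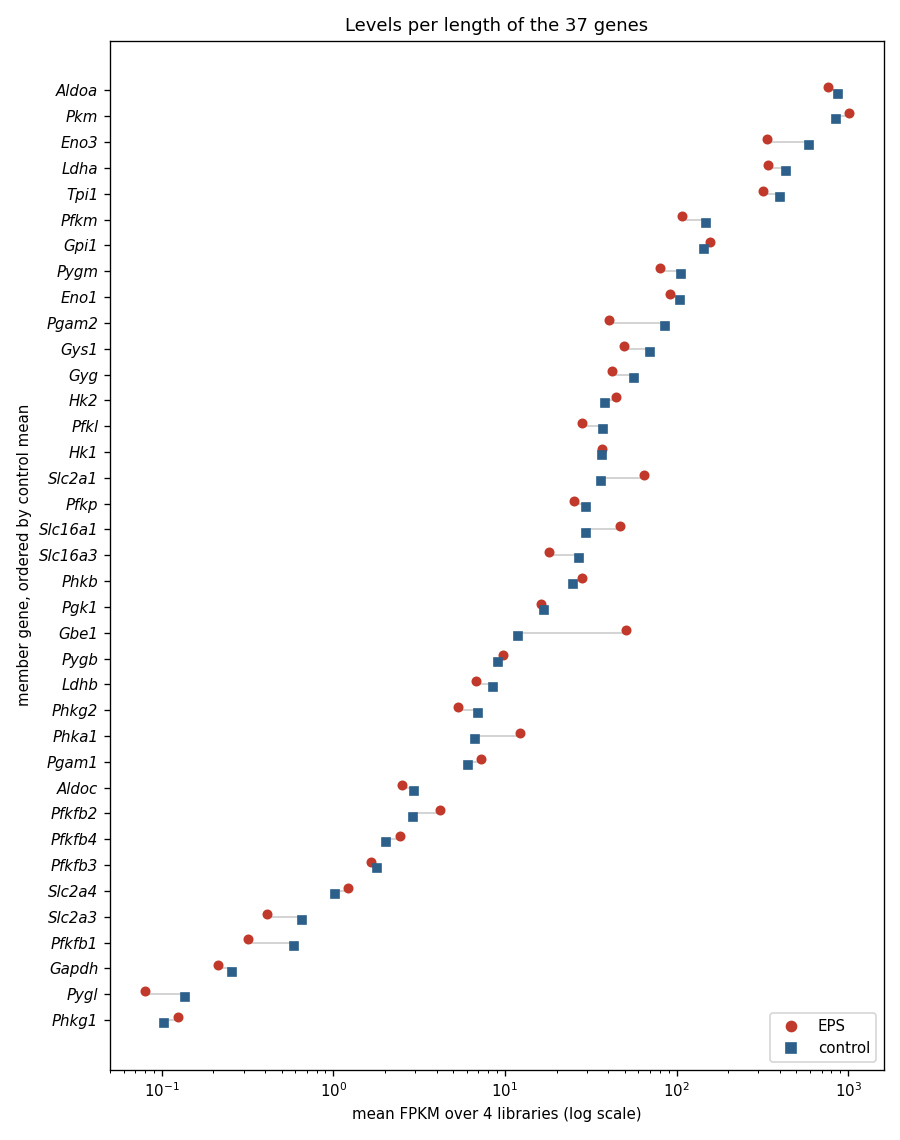
Mean FPKM (fragments per kilobase and M fragments, as deposited) of the 37 genes over 4 EPS libraries (circles) and 4 control libraries (squares), on a log axis and ordered by the control mean. Aldoa and Pkm lead both groups, followed in EPS by Ldha and Eno3, almost level at 340 and 339 FPKM, and in control libraries by Eno3 at 590.0 FPKM, and the widest gap between the marks is that of Gbe1.

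Of the lactate carriers, Slc16a1 was called higher and Slc16a3 lower with the replicate block, and neither was called without it over 8 libraries. Slc16a1, which encodes MCT1, the carrier typical of lactate uptake, had 150, 260.2, 139 and 132 CPM in EPS replicates 1 to 4, against 84.1, 196, 97.3 and 87.8 CPM in control replicates 1 to 4. Replicate 2 was far above the others in both groups, and each EPS library was above the control of its number. Slc16a1 (ENSMUSG00000032902; chromosome 3, 104638668 to 104658462, plus strand) had a log2 fold change of 0.64 (SE 0.31, adjusted p = 0.306). With the replicate block Slc16a1 rose by 0.60 (SE 0.13, adjusted p = 0.0145), and without pair 2 that fit gave 0.64 (adjusted p = 0.00397). Slc16a3, which encodes MCT4, the lactate exporter of glycolytic muscle, had 30.1, 8.41, 74.2 and 66.0 CPM in EPS replicates 1 to 4, against 49.2, 19.9, 98.7 and 97.4 CPM in control replicates 1 to 4. Replicate 2 was the lowest library of both groups, and each EPS library was below the control of its number. The Slc16a3 value of control replicate 2 is 7 fragments, so the direction in that pair rests on few counts. Slc16a3 (ENSMUSG00000025161; chromosome 11, 120948480 to 120960868, plus strand) had a log2 fold change of -0.68 (SE 0.58, adjusted p = 0.577). With the block Slc16a3 fell by 0.60 (SE 0.14, adjusted p = 0.0191). The log2 ratio of Slc16a3 to Slc16a1 was -2.29 ± 1.87 in EPS and -0.97 ± 1.60 in control libraries (SD, n = 4 each; exact two-sided permutation p = 0.286). In all 4 pairs it was lower in EPS, and the exact paired test gives at best p = 0.125 with 4 pairs.

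Ldha, the muscle form of lactate dehydrogenase and the most abundant gene of lactate handling, had 360.2, 256, 747 and 688 CPM in EPS replicates 1 to 4, against 515, 292, 879.7 and 889.8 CPM in control replicates 1 to 4. Replicates 3 and 4 were well above replicates 1 and 2 in both groups, and each EPS library was below its control of the same number. The log2 fold change was -0.34 (SE 0.41, adjusted p = 0.704, and 0.129 with the block). Ldhb, the heart form, averaged 9.30 CPM ± 2.68 in EPS and 11.03 CPM ± 2.75 in control libraries (SD, n = 4 each; log2 fold change -0.15, adjusted p = 0.814).

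The windows before the RefSeq starts of the carriers, which moved in opposite directions with the block, are shown together (RefSeq, GRCm38.p6, chr3:104638414-104638663 for Slc16a1 and chr11:120948817-120949066 for Slc16a3, both plus strand, 5′ to 3′). Capitals mark hypoxia response cores and, in Slc16a1, the overlapping E-box and antioxidant core.

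Slc16a1: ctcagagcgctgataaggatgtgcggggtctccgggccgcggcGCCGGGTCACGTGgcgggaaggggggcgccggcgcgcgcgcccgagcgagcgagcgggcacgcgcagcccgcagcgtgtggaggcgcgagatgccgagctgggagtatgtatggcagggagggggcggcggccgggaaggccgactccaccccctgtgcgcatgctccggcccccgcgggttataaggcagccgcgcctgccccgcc

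Slc16a3: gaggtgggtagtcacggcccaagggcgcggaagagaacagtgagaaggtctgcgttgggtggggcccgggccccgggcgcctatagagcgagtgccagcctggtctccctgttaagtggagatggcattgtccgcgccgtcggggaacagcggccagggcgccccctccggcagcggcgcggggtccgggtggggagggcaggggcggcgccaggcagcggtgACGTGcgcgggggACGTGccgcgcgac

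The hypoxia core ACGTG was found in both. In Slc16a1 it is read on both strands of 1 palindrome, CACGTG, which also is an E-box and runs into a match to the antioxidant core on the other strand. Slc16a3 held 2 separate copies and no E-box. Over the pathway, the hypoxia core was in 36.5% of the 52 member windows and the antioxidant core in 5.77%. The RefSeq start of Slc16a3 lies inside the gene as annotated for mm10, so this window is 1 of its possible promoters.

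The muscle isozymes with lower values stood beside a lower level of the myotube markers. Of the 13 myotube markers tested, all 13 had a negative log2 fold change (median -0.78), none was called without the block and 11 were lower with it, and the summed level in EPS libraries did not reach that of any control library. Creatine kinase Ckm, for example, averaged 329 CPM in EPS and 534 CPM in control libraries (log2 fold change -0.70). In bulk RNA, fewer cells of a type and less RNA per cell cannot be told apart, and the part of the myotube marker level in the values of Pgam2, Eno3, Pygm, Gys1 and Pfkm was not tested. The 6 markers of undifferentiated myoblasts or dividing cells had a median of -0.41 and none was called in either fit. Of the 3 fibroblast markers, Pdgfra averaged 16.5 CPM ± 3.71 in EPS and 8.16 CPM ± 1.78 in control libraries (SD, n = 4 each), with no overlap of the groups, and was called higher with the block (log2 fold change 0.89, adjusted p = 0.0141) but not without it (0.91, adjusted p = 0.0542). Col1a1 averaged 268 CPM ± 104 in EPS and 348 CPM ± 206 in control libraries (SD, n = 4 each; log2 fold change -0.41, adjusted p = 0.666), and Dpt was near the floor. The part of the Pdgfra level in the values of the members was not tested.

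The sets of replicates 1 and 2 and of replicates 3 and 4 differed in level for many members. Over the genes tested, a library's deviation from the gene mean correlated with log2 gene length. Pearson r was 0.12, 0.18, -0.27 and -0.24 in EPS replicates 1 to 4, and -0.04, 0.13, -0.18 and -0.18 in control replicates 1 to 4. The part of gene length in the difference between the sets was not tested. The comparison of EPS with control was repeated in each set. Within replicates 3 and 4, 4 members were higher (Slc2a1, Slc16a1, Phka1 and Gbe1) and 9 lower (Pfkm, Pfkl, Pfkfb3, Pgam2, Eno3, Ldha, Slc16a3, Pygm and Gys1), against 8.16% and 7.91% of all genes tested. Within replicates 1 and 2, which include the shallow library, 2 were higher (Slc2a1 and Gbe1) and 1 lower (Pgam2), against 3.56% and 0.865% of all genes. With the block and without pair 2, 4 members were higher and 11 lower, against 9.10% and 8.23% of all genes. The 11 were Pfkm, Pfkl, Tpi1, Pgam2, Eno1, Eno3, Ldha, Slc16a3, Pygm, Gys1 and Gyg. Of the 34 members with a value in both sets, 27 had the same sign in both, 10 positive and 17 negative, and 7 had opposite signs. The summed level of the 37 members was 8199, 7348, 11573 and 10441 CPM in EPS replicates 1 to 4, against 9306, 5904, 12663 and 11113 CPM in control replicates 1 to 4, so the sets differed more than the groups.

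**Figure D5:**
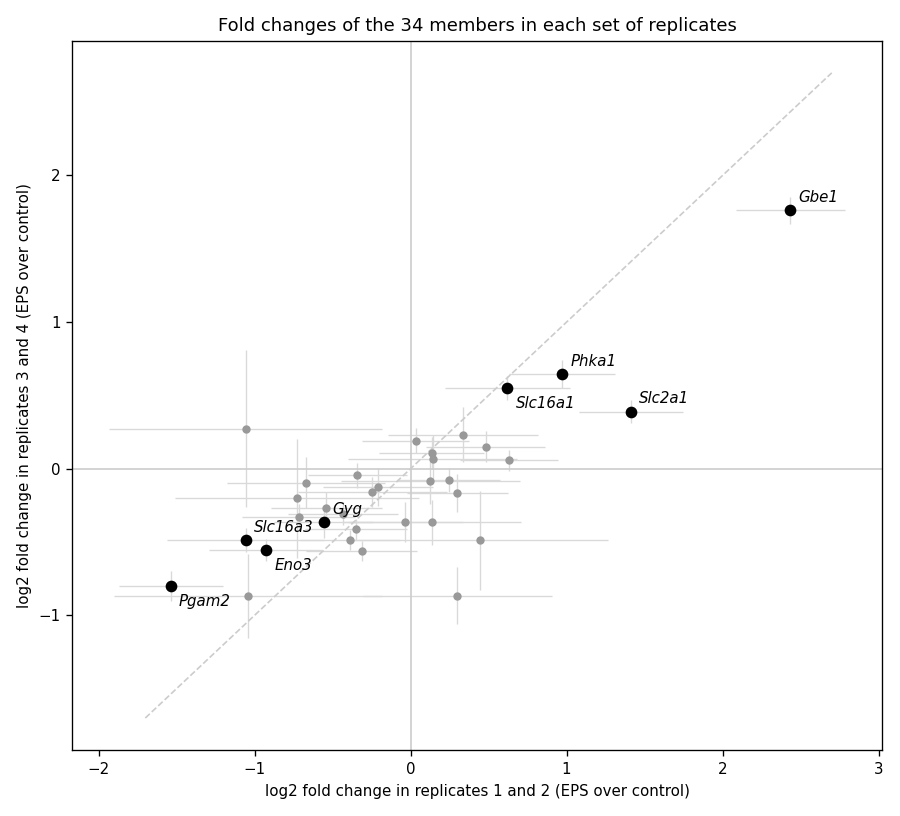
Log2 fold changes (EPS over control) of the 34 members tested, from replicates 1 and 2 alone (horizontal) and replicates 3 and 4 alone (vertical), with 1 standard error. Black points are the 8 members past the threshold with or without the replicate block, and the dashed line marks equal values. The 8 named members have the same sign in both sets, and all 8 lie nearer to zero in replicates 3 and 4.

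Further genes of the pathway were counted from a list of 74, of which 52 were tested. The fit without the block called 1 higher, Pgm2l1, and 1 lower, Prkag3, and the block fit 6 higher and 3 lower. Over all genes tested, 2.30% were higher and 0.758% lower without the block, and 7.31% and 4.78% with it. Prkag3, the regulatory gamma subunit of AMP-activated kinase typical of glycolytic muscle, had 65.0, 71.0, 57.7 and 65.3 CPM in EPS replicates 1 to 4, against 165, 142, 110.3 and 106 CPM in control replicates 1 to 4. All EPS libraries lay below all control libraries (log2 fold change -1.0, SE 0.18, adjusted p = 0.0151), and the call was lost without EPS replicate 1 or control replicate 1 (adjusted p at most 0.0642). Pgm2l1, glucose 1,6-bisphosphate synthase, averaged 10.8 CPM ± 1.66 in EPS and 4.46 CPM ± 1.40 in control libraries (SD, n = 4 each; log2 fold change 1.14, adjusted p = 0.0348). Its call was lost without EPS replicate 1 and without control replicate 1, 3 or 4 (adjusted p at most 0.161).

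The block fit added genes of glycogen scaffolding and degradation. Ppp1r3c, a subunit that targets protein phosphatase 1 to glycogen, rose (log2 fold change 1.02 with the block, adjusted p = 0.0106), whereas Ppp1r3a, the muscle glycogen-targeting subunit, fell (-1.03, adjusted p = 0.00123). Phka2, the liver alpha subunit of phosphorylase kinase, fell (-0.43, adjusted p = 0.0465), in contrast to the muscle subunit Phka1. Gaa, the lysosomal glucosidase that degrades glycogen, rose (0.52, adjusted p = 0.0493). Pcx, pyruvate carboxylase, rose (1.02, adjusted p = 0.00785), as did Adpgk, an ADP-dependent glucokinase (0.50, adjusted p = 0.0434), and Txnip, an inhibitor of glucose uptake (0.70, adjusted p = 0.0221). None of these 7 passed without the block, where the adjusted p was 0.0609 for Pcx and 0.103 to 0.472 for the other 6.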

How the data were processed

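RNA-seq of 8 libraries, 4 EPS and 4 control, each in 2 lanes (16 samples), was used. Groups and replicate numbers came from the sample titles. Cuffdiff 2.2.1, Cufflinks, STAR 2.5.1 and mm10 are listed, with no roles, in the submitters' processing notes; no source used here gives the annotation release or strand setting. Per the file headers, the deposited table holds, per gene and replicate, unscaled estimated counts of fragments and FPKM. Of the estimated counts above 0, 93.3% were whole, and all were rounded. Genes marked as skipped for too many fragments (46, no member) entered neither library sizes nor tests. Deposited FPKM served for levels per length and for an alternative test.

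Genes were filtered (filterByExpr, minimum count 10, minimum total 15), scaled by TMM and tested with edgeR 4.0.16's quasi-likelihood test (R 4.3.3, limma 3.58.1), with Benjamini-Hochberg adjustment over 13987 genes and a threshold of 0.05. CPM values use TMM-scaled library sizes. Standard errors are approximate, from the log2 fold change divided by the root of F. Fitted fold changes need not equal ratios of mean CPM. Limits from counts of 0 cover counting error only. Isozyme ratios are differences of log2 CPM (prior count 2), tested by exact permutation. DESeq2 1.42.0, limma on log2(FPKM + 0.1) and log2(FPKM + 1), other scalings and filters, a gene length offset and left-out libraries were alternatives. In counts simulated with these library sizes, the fit without the block recovered 47 of 100 genes changed 2-fold, with 2 false calls. It recovered 96 of 100 genes changed 4-fold, so many changes of 2-fold or less can be missed. Only genes above a lower CPM limit were changed, and no replicate pairs or sets were simulated. These rates therefore do not cover members of low level.

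Deviations from the group mean of same-numbered EPS and control libraries correlated across 13987 genes with r = 0.300, 0.214, 0.286 and 0.297 for numbers 1 to 4. All exceed 0.1, so the numbers were taken to pair the libraries; the labels do not say what a number marks. Numbers 3 and 4 also correlated across (r = 0.253 for EPS 3 with control 4, 0.231 for EPS 4 with control 3), so part of this is shared by the set of replicates 3 and 4. The fit with this replicate block is given where it changes a call.

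Annotation, positions and near-identical transcripts (blastn 2.17.0) came from GENCODE vM21 (mm10). Promoter sequences are RefSeq's (GRCm38.p6); 35 of 37 members matched. The motif letters were searched on both strands in the 250 bases before each start.

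The members, gene lists and tests were chosen with earlier results of these data known. Values by library are given for members called with or without the block, members whose groups do not overlap and the most abundant member of each role.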

Additional observations from a re-analysis of the deposited data

Results flagged for a closer look

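A library far from the other 3 of its group was found in 6 of 90 groups of 4 values checked (the members tested and the 11 isozyme ratios, in EPS and in control libraries). Chance flags about 1 in 20 groups. Replicate 2 was the library in all 6, and 4 of them concern control replicate 2, the shallow library.

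Pfkm was at 314 CPM in EPS replicate 2, against 402 to 420 CPM in the other EPS libraries, and at 304 CPM in control replicate 2, against 581 to 614 CPM in the other control libraries. Slc16a1 was at 260 CPM in EPS replicate 2, against 132 to 150 CPM in the other EPS libraries, and at 196 CPM in control replicate 2, against 84.1 to 97.3 CPM in the other control libraries. Both members thus deviate in the same direction in the EPS and the control library numbered 2, and without that pair the block fit called Pfkm lower in EPS (adjusted p = 0.00698) and Slc16a1 higher (adjusted p = 0.00397).

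The log2 ratio of Pgam2 to Pgam1 was 9.06 in control replicate 2, against 2.12 to 2.98 in the other control libraries. It rests on no Pgam1 fragment. The log2 ratio of Ldha to Ldhb was 4.35 in control replicate 2, against 6.08 to 6.29 in the other control libraries, and rests on 5 Ldhb fragments.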

How the results depend on the processing

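Gbe1 passed under all 19 alternatives and no log2 fold change of a gene called in either fit reversed. Phka1 passed under 12, Pgam2 under 7, Slc2a1 and Eno3 under 6 each, Slc16a1 and Slc16a3 under 4 each, and Gyg under 3. With 1 library left out in turn, without the block, Phka1 passed in 4 of 8 fits. Pgam2, Slc2a1, Eno3, Slc16a1, Slc16a3 and Gyg passed in 0 of 8. Without the block, 322 genes were higher and 106 lower in EPS, with 2 and 0 members. The replicate block gave 1023 and 668 (members 4 and 4), the block without pair 2 gave 1290 and 1167 (4 and 11), and the block with a gene length offset 990.0 and 873 (4 and 10). The length offset alone lowered 203 genes and 2 members, Pgam2 and Eno3. Replicates 1 and 2 alone gave 510.0 higher genes and 1 lower member, and replicates 3 and 4 alone 1156 and 1121 (4 and 9). DESeq2 called 633 and 294 (3 and 3). Limma called 94 and 29 at log2(FPKM + 0.1) and 130.0 and 48 at log2(FPKM + 1), with 1 member higher in each. With no filter 162 were lower. Leaving out each library in turn gave 92 to 427 higher and 22 to 167 lower genes, 1 to 2 members higher and 0 to 0 lower; the lowest counts came without EPS replicate 1 or control replicate 1, 3 or 4. The cause was not tested.

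No isozyme ratio passed under any alternative, but no conclusion follows, because the exact tests left little or no room to pass. With 4 against 4 libraries p cannot go below 0.0286 before adjustment over the 11 ratios. Pygm to Pygb and Pgam2 to Pgam1 reached that floor, and both had an adjusted p of 0.157. Without pair 2 the test is of 3 against 3 libraries and p cannot go below 0.1, so no ratio could pass. The differences (EPS minus control, log2) of Slc2a4 to Slc2a1 (-0.02), Pfkm to Pfkl (0.07), Aldoa to Aldoc (-0.76), Ldha to Ldhb (-0.08) and Pfkfb1 to Pfkfb3 (-1.65) changed sign as single libraries were left out, ranging from -0.94 to 0.40, -0.21 to 0.34, -1.43 to 0.45, -0.55 to 0.38 and -2.70 to 0.42. Without pair 2, Pfkm to Pfkl was -0.0731, Aldoa to Aldoc 0.18 and Pfkfb1 to Pfkfb3 0.48, and a prior count of 0.5 gave 0.46 for Slc2a4 to Slc2a1. With the replicate block (paired sign flips) every ratio kept its value, and the exact test over 4 pairs cannot go below p = 0.125. Depth limits Slc2a3, Slc2a4, Pfkfb1, Pfkfb2, Pfkfb3, Pfkfb4, Aldoc, Pgk1 and Pgam1, which had 0 or 1 fragment in control replicate 2. The untested members Gapdh, Pygl and Phkg1 had 0 there.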

Other observations

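The pentose phosphate branch, which leaves glycolysis at glucose 6-phosphate and yields NADPH and ribose, was higher in EPS at several steps. Of a list of 9 genes, all tested, 3 were called higher and none lower (edgeR adjusted p under 0.05, no block), and the block fit added Tkt, against 2.30% of all genes tested called higher without the block and 7.31% with it. Pgd, 6-phosphogluconate dehydrogenase, had 509, 522, 454.5 and 384 CPM in EPS replicates 1 to 4, against 92.7, 87.9, 111 and 95.9 CPM in control replicates 1 to 4. The groups lay far apart (log2 fold change 2.26, SE 0.17, adjusted p = 7.6e-05). G6pdx, glucose 6-phosphate dehydrogenase, the entry enzyme, had 61.7, 51.1, 80.6 and 70.8 CPM in EPS replicates 1 to 4, against 22.2, 14.2, 35.7 and 26.7 CPM in control replicates 1 to 4. The groups did not overlap (log2 fold change 1.31, SE 0.23, adjusted p = 0.0155), and the call was lost without EPS replicate 1 or control replicate 1 or 4 (adjusted p at most 0.0817).

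Taldo1, transaldolase, averaged 171 CPM ± 15.6 in EPS and 74.4 CPM ± 6.96 in control libraries (SD, n = 4 each), with a log2 fold change of 1.18 (SE 0.15, adjusted p = 0.00302). Tkt, transketolase, averaged 43.3 CPM ± 7.13 in EPS and 19.4 CPM ± 9.85 in control libraries (SD, n = 4 each), and did not pass without the block (log2 fold change 0.97, adjusted p = 0.0744, against 0.00343 with it). The other 5 genes (H6pd, Pgls, Rpia, Rpe and Prps1) passed in neither fit, with log2 fold changes from -0.15 to 0.19 without the block. Pgd and Gbe1 (2.06) had the largest fitted log2 fold changes without the block among the 34 members, the 52 further genes and these 9 that were tested over 8 libraries.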
